A study of Mus musculus with 12 samples.

Results

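Within brain tumors induced by oncogenic RasV12 in mice, 3 libraries of sorted CD11b+ cells were set against 3 libraries of sorted GFP+ cells, over all genes of the deposited expression tables. The 6 libraries are part of a series of 12. CD11b is the integrin alpha M subunit, encoded by Itgam and carried by microglia, macrophages, monocytes and neutrophils, so the CD11b+ fraction stands for the phagocytes of the tumor and the GFP+ fraction for its tumor cells. The tumor groups came from mice of genotype Msi1-CreER;RasV12, labelled as tumor by origin. The control groups, used here only where a compartment difference is compared between tumor and healthy tissue, were CD11b+ and GFP+ cells of the cerebellum of Msi1-CreER;GFP mice, again with 3 libraries each. All 4 groups were on a 129;C57BL/6 mixed background and carried Msi1-CreER, a Cre recombinase driven by Msi1, a gene of neural stem and progenitor cells. The sources used here do not give the age of the mice or the sort gates, and the tumor genotype does not say which allele gave the GFP. Whether the 3 libraries of a group came from separate mice is not given either, so every p-value measures how far these libraries differ from each other, a spread that may be technical. In sorted bulk RNA, fewer cells of a type and less RNA per cell cannot be told apart.

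As background, phagocytes of the brain depend on growth factors that bind the receptor Csf1r, sense fractalkine through Cx3cr1 and are recruited by chemokines that bind Ccr receptors. They read antibody, complement and damaged-cell signals through receptors that signal by ITAM motifs, engulf debris, and present peptides on MHC class II. RasV12 is a Ras protein locked in its active form that drives the MAPK/ERK cascade, whose target genes include feedback inhibitors, PEA3-type transcription factors and ligands of the EGF receptor. The comparison asked which side of the tumor carried the transcript of each ligand, receptor and pathway.

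Values below are normalized counts, the authors' read counts divided by a size factor per library, given for libraries 1, 2 and 3 in that order. A difference is CD11b+ minus GFP+ on the log2(normalized count + 1) scale with its standard error (n = 3 libraries per group), and understates the change of genes with low counts. An adjusted p is from limma with Benjamini-Hochberg adjustment over the 29835 genes tested, and a gene passed the test at an adjusted p under 0.05. Where every library of a group was at 0, a fold is a lower bound against a floor of 3 reads over that group, for counting error only.

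The CD11b+ libraries were shallower and less alike than the GFP+ libraries. The GFP+ libraries held 21227344 to 34432725 reads and correlated with each other at r = 0.842 to 0.88 over genes. The CD11b+ libraries held 3642570, 2951629 and 23589310 reads, and correlated at 0.512 to 0.537. A single read was therefore worth 4.46 and 5.54 normalized counts in CD11b+ libraries 1 and 2. Mitochondrial transcripts took 13.3 to 17.7% of counts in CD11b+ and 1.53 to 2.62% in GFP+ libraries. A diffuse background was read from 2079 olfactory, vomeronasal, trace amine and taste receptor genes, which brain cells hardly transcribe. It stood at 58.7 to 89.3 normalized counts per kb of exon in the CD11b+ libraries and 1.83 to 3.39 in the GFP+ libraries. Scaled to gene length and base composition and limited to each gene's own count, it amounted to 32.9 to 39.9% of the nuclear counts of CD11b+ libraries and 1 to 3.3% of those of GFP+ libraries. Counts followed by "with subtraction" are of calls that passed in the same direction also in a fit on values with this background subtracted, and its part in single results was not tested beyond that. The subtraction uses a mean density per kb, so a call that passes with it may still hold background. It took more from CD11b+ than from GFP+ libraries, so it moves differences toward GFP+ cells. For calls higher in GFP+ cells, passing with subtraction is therefore little test.

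Of the 29835 genes tested, 8896 were higher in CD11b+ cells (29.8%) and 3057 were lower (10.2%). With the background subtracted as well, 3135 of the higher genes (10.5%) and 2677 of the lower genes (8.97%) passed in the same direction. Counts of list genes below stand beside these shares of all genes. The excess of higher calls depended on that subtraction, which works against higher calls and for lower ones. In the fit with subtraction, 4647 genes were lower. The median difference of all genes was 1.79 without and -0.46 with subtraction. Of 16080 named protein-coding genes, those without receptor and clone names, 21.1% were higher and 16.5% lower, with a median of 0.3. Of the 3142 genes called higher in the fit with subtraction, 2033 had receptor or clone names and 1002 were named protein-coding genes. Of all calls, 74.4% were higher in CD11b+ cells, against 68.8% after upper-quartile rescaling, 61.3% among genes with a mean of at least 100, 57.5% without receptor and clone-named genes, 44.7% after quantile normalization, 32.7% with edgeR on the recovered reads and 40.3% with the background subtracted. The median of all genes moved to 1.5 and 0.3 with upper-quartile and quantile scaling and to 1.08 with edgeR and 2.4 with DESeq2. Without GFP+ library 2 or 3 the lower count was 1977 or 1981. Without both shallow CD11b+ libraries, 3366 genes were higher and 1815 lower.

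The cells sorted as CD11b+ carried the markers of their label. The target of the sort, Itgam (chromosome 7, 128062640 to 128118491, GRCm38), read 1350.2, 1357 and 3101 in CD11b+ and 0.5, 0 and 0 in GFP+ libraries, a difference of 10.61 ± 0.86 (adjusted p = 2.55e-05). All 3 CD11b+ libraries lay above all GFP+ libraries. The common leukocyte antigen Ptprc read 5361, 8789 and 5256 against 112, 181 and 28.6, again without overlap (adjusted p = 0.00174). Of 12 pan-myeloid genes tested, 11 were higher in CD11b+ cells, all 11 also with the background subtracted, and their summed level ran from 1340 to 3080 FPKM in CD11b+ and from 50.7 to 88.7 FPKM in GFP+ libraries. The exception was Cd68, a lysosomal glycoprotein of macrophages, at 2816, 1385 and 2390.3 in CD11b+ and 1497, 1347 and 868 in GFP+ cells (adjusted p = 0.636), where 1 GFP+ library lay above the lowest CD11b+ library.

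The GFP+ cells carried genes of neural progenitors and glia. Of 11 neural stem and progenitor genes tested, 6 were higher in GFP+ cells, and all 6 were so with the background subtracted. Nr2e1, a nuclear receptor of neural stem cells, went the other way, at 8.9, 183 and 216 in CD11b+ and 0.9, 1.1 and 0 in GFP+ cells (adjusted p = 0.00923), and was not tested with subtraction. Sox2, a transcription factor of neural stem cells, read 1185, 623 and 638 in GFP+ libraries against 0, 0 and 72.1 in CD11b+ libraries (difference -7.54 ± 1.73, adjusted p = 0.0056). Nestin (Nes), an intermediate filament of the same cells, read 4629, 7746 and 3229.5 against 103, 543 and 23.4. Olig2, which specifies oligodendrocyte precursors, read 609.7, 198 and 1303 against 0 in all 3 CD11b+ libraries, at least 545.5-fold higher. None of these genes overlapped between the groups. Of 10 oligodendrocyte precursor genes, Olig2 among them, 3 were higher in GFP+ cells (2 with subtraction), 6 did not pass, and Gpr17, a receptor of committed precursors, was higher in CD11b+ cells, at 205, 980.3 and 49.8 against 0, 0.6 and 0, but not with subtraction. The median of that list was 0.47, and it turned to -0.47 with edgeR and -2.27 with subtraction. Msi1, whose promoter drives the Cre, was low throughout, at 40.6, 39.6 and 18.6 in GFP+ and 0, 271 and 0.6 in CD11b+ libraries, with all 3 GFP+ values inside the CD11b+ range (adjusted p = 0.412). Of 12 genes of astrocytes and Bergmann glia, 7 were higher in GFP+ cells (6 with subtraction) and 1, Apoe, in CD11b+ cells (1). Gfap, the filament of astrocytes, did not pass, at 3160.3, 3962 and 5657 in GFP+ and 2398, 4851 and 3998 in CD11b+ cells (adjusted p = 0.739). Msi1 passed it without CD11b+ 2 (adjusted p = 0.0435).

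The genes furthest apart between the compartments were, on the phagocyte side, Tmem119, Lair1, Csf1r, Ccr1, Laptm5, Cyth4, Ncf1, Itgam, Cx3cr1, Klhl6, Cd300d, Irf5, Vav1, Mpeg1 and Muc4. They are the 15 with the largest difference among 2378 protein-coding genes that passed, did not overlap and held at least 100 normalized counts in every CD11b+ library. Tmem119, a membrane protein of resident microglia (chromosome 5, 113793729 to 113800516), read 4429.5, 3118 and 3163 against 0 in all 3 GFP+ libraries, a difference of 11.78 ± 1.45 and at least 7422-fold higher. The inhibitory collagen receptor Lair1 read 3026, 1889 and 5265 against 0 in each GFP+ library, at least 10650-fold. Cyth4, a GTP exchange factor of blood cells, read 1711, 1396 and 4003 against 0, and the pore-forming macrophage protein Mpeg1 1493, 144 and 4002 against 0, with CD11b+ library 2 the lowest. Muc4, a membrane mucin, read 299, 1778 and 1597 against 0, beside a background of 688 normalized counts expected for its length in CD11b+ cells.

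On the tumor-cell side the 15 genes were Nptx1, Gal, Cdkn2b, Perp, Trp53i11, Dkk3, Mmp15, Fjx1, Wnt7b, Bcan, Bcl6b, Mab21l1, Scg2, Adm and Igfbp2, of 2334 that met the same rule. Nptx1, a secreted pentraxin of neurons (chromosome 11, 119538719 to 119547753), read 16393, 18888 and 24316 in GFP+ libraries and 0 in all 3 CD11b+ libraries, at least 14020-fold higher (difference -14.26 ± 1.34). Cdkn2b, the cell cycle inhibitor p15, read 12474, 10117 and 10374 against 0, at least 7587-fold. Secreted peptides in the group were galanin (Gal) at 17067, 12057 and 8806 against 0 and adrenomedullin (Adm) at 2179, 3068 and 1933 against 0. Perp, a p53 target of cell adhesion, read 10332, 8437 and 7268 against 0 and Bcan, the proteoglycan brevican, 4377, 11794 and 12179.9 against 0, 0 and 28.8. Igfbp2, which binds insulin-like growth factors (chromosome 1, 72824503 to 72852474), read 89729.6, 137685 and 129791 in GFP+ and 321, 22.2 and 27 in CD11b+ libraries (difference -10.95 ± 0.85). The 3 GFP+ values of each of these genes lay above every CD11b+ value.

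Among ligands that passed, more were higher in tumor cells, and among receptors that passed, more were higher in phagocytes, while 37 ligands and 37 receptors did not pass. Of 99 ligands in a list of 114 ligand and receptor pairs, 94 were tested: 36 were higher in GFP+ cells, 35 of them also with the background subtracted, and 21 were higher in CD11b+ cells, 13 of them also with the background subtracted. That is 38.3% and 22.3% of the ligands, beside 10.2% and 29.8% of all genes and 16.5% and 21.1% of named protein-coding genes. Of 80 receptors, 78 were tested: 32 were higher in CD11b+ cells (19 with the background subtracted) and 9 in GFP+ cells (9), which is 41% and 11.5%. The median difference was -1.09 for ligands and 1.37 for receptors, beside 1.79 for all genes and 0.3 for named protein-coding genes.

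Per length of transcript, osteopontin led the ligands of the tumor cells and apolipoprotein E those of the phagocytes. Mean levels in GFP+ libraries, in FPKM with the SD over 3 libraries, were 8502 ± 3908 for osteopontin (Spp1), 1065 ± 351 for galanin, 841 ± 210.4 for Tslp, 814 ± 182 for B2m and 734 ± 135 for pleiotrophin (Ptn). The order from galanin to pleiotrophin is within the spread of the libraries. In CD11b+ libraries the order was 1991 ± 534 for Apoe, 860 ± 424 for B2m, 248 ± 97.5 for the chemokine Ccl12 and 183 ± 94.8 for Spp1, the last 2 within their spread. Among receptors, 348 ± 253 for Cd74 and 201 ± 51.9 for Csf1r led in CD11b+ cells, again within their spread. In GFP+ cells the leading receptor was the TNF receptor Tnfrsf1a, at 86.4 ± 3.97 FPKM, ahead of 42.4 ± 8.38 for the urokinase receptor Plaur and 37.2 ± 7.28 for Lrp1.

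Of the 114 pairs, 12 had the ligand higher in GFP+ cells and the receptor higher in CD11b+ cells, and 8 of the 12 also with the background subtracted. A single pair, Apoe and Lrp1, was split the other way. With 38.3% of ligands higher in GFP+ and 41% of receptors higher in CD11b+ cells, such pairs arise without any link between partners. For the other way the shares were 22.3% and 11.5%. Neither pair count was larger than these shares give for unlinked partners, and the counts were not tested against them. Both genes were higher in CD11b+ cells in 10 pairs (5 with subtraction) and in GFP+ cells in 6 (6), and neither passed in 18 (10). In the remaining pairs 1 gene passed: the ligand in GFP+ cells in 28 (21 of the same kind with subtraction), the ligand in CD11b+ cells in 11 (6), the receptor in CD11b+ cells in 22 (12) and the receptor in GFP+ cells in 6 (6). The count of 12 fell to 7, 6 and 6 without GFP+ libraries 1, 2 and 3, and to 3 without both shallow CD11b+ libraries. edgeR on the recovered reads gave 6 such pairs and no pair split the other way. A transcript on each side shows where the RNA was found, not that protein was made or bound.

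**Figure D1:**
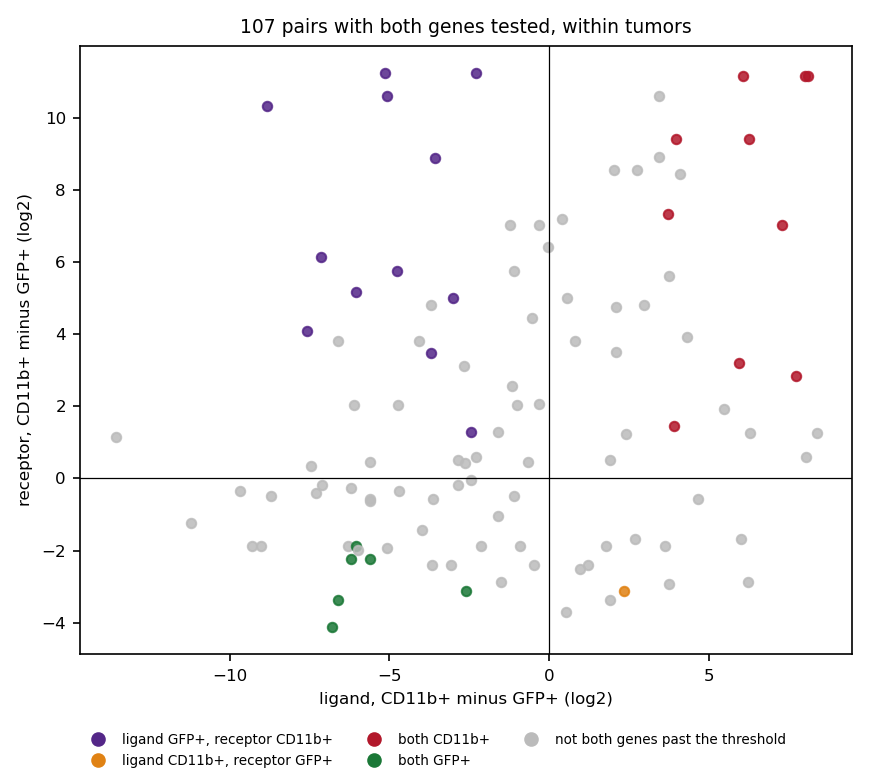
Difference of the ligand (horizontal axis) and of its receptor (vertical axis) between tumor CD11b+ and GFP+ cells, log2 scale, for the 107 pairs with both genes tested; each point is a pair. The 12 pairs with the ligand higher in GFP+ and the receptor higher in CD11b+ cells fill the upper left, and Apoe with Lrp1 is the single point split the other way.

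Both ligands of Csf1r were higher in tumor cells, and the receptor in phagocytes. Csf1r read 13846, 13973 and 21227 in CD11b+ and 23, 1.7 and 3.6 in GFP+ libraries (difference 11.23 ± 0.87, adjusted p = 2.17e-05). Csf1, the growth factor of macrophages, read 1213, 1426 and 1599 in GFP+ and 446, 144 and 374 in CD11b+ libraries (difference -2.28 ± 0.63, adjusted p = 0.0131). Il34, the other ligand of Csf1r, read 853, 1043 and 1364 against 26.7, 33.2 and 28.2 (difference -5.14 ± 1.09, adjusted p = 0.00393), and its CD11b+ values lay under the background of 45.5 normalized counts expected for its length and composition. No library of either group overlapped the other in any of the 3 genes.

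The chemokine fractalkine (Cx3cl1) and the cytokine Mif showed the same split. Cx3cl1 read 1881, 1727 and 1452 in GFP+ libraries and 0, 0 and 49.2 in CD11b+ libraries (difference -8.83 ± 1.58, adjusted p = 0.00178). Its receptor Cx3cr1, a gene of microglia, read 6782, 3567 and 7306 in CD11b+ and 40.2, 1.1 and 0 in GFP+ libraries (difference 10.31 ± 1.32, adjusted p = 0.000336). Mif read 2337, 2263 and 1962 in GFP+ and 103, 177 and 329 in CD11b+ libraries (difference -3.58 ± 0.57, adjusted p = 0.00108). Cd74, the MHC class II invariant chain that also binds Mif, read 6074, 3589 and 14887 in CD11b+ and 1.4, 64.2 and 18.6 in GFP+ libraries (difference 8.89 ± 1.42, adjusted p = 0.00108). The groups did not overlap in any of these genes.

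**Figure D2:**
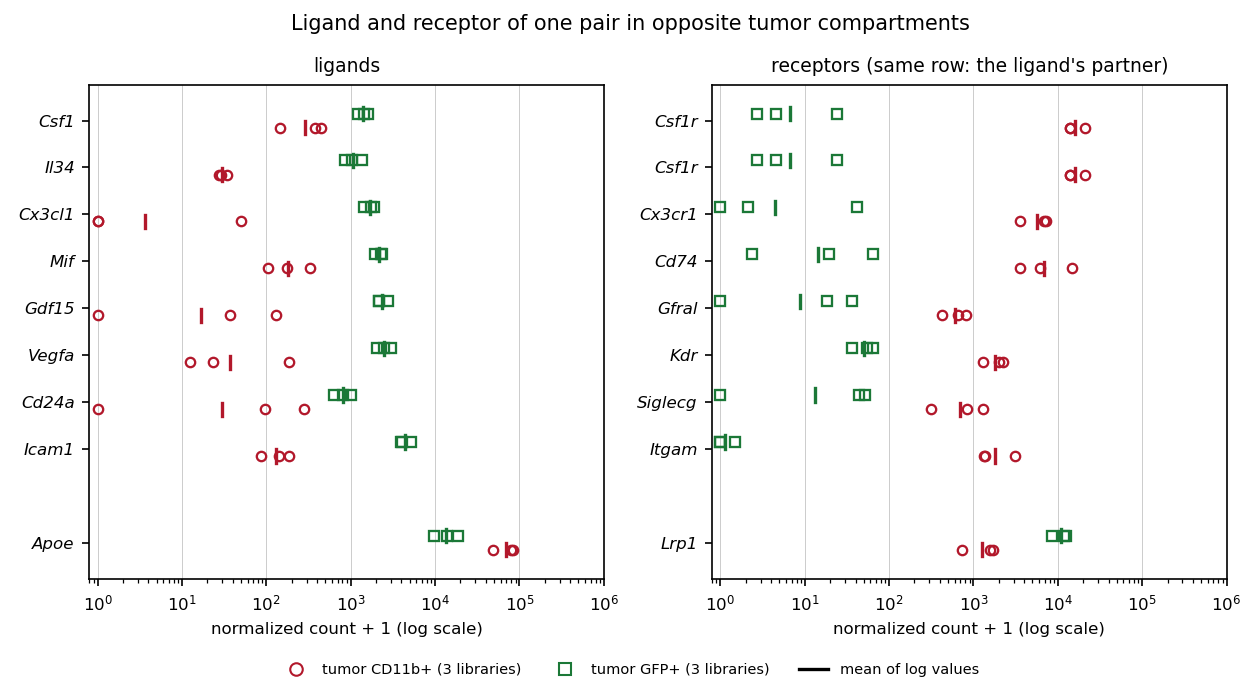
Normalized count + 1 (log scale) in each tumor library for the 8 pairs with the ligand higher in GFP+ and the receptor higher in CD11b+ cells with and without background subtraction, and for Apoe and Lrp1; vertical ticks are means of the log values. Circles (CD11b+) lie left of squares (GFP+) for the first 8 ligands and right of them for the receptors, and the reverse holds for the last pair.

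The angiogenic ligand Vegfa met its receptors on different sides. Vegfa read 2985, 2048 and 2471 in GFP+ and 22.3, 183 and 11.4 in CD11b+ libraries (difference -6.04 ± 0.94, adjusted p = 0.000947). Kdr, its main signaling receptor on endothelium, was higher in CD11b+ cells, at 1315, 1983 and 2251 against 63.7, 35 and 53.3 (difference 5.17 ± 0.72, adjusted p = 0.000496), beside a background of 528 expected in CD11b+ cells. Flt1, the other Vegfa receptor, was higher in GFP+ cells, at 1825, 1487 and 1861 against 316, 537 and 590.4 (difference -1.88 ± 0.68, adjusted p = 0.0412). Vegfc and its receptor Flt4 were both higher in GFP+ cells, Vegfc at 511, 756 and 568 against 0, 161 and 0 and Flt4 at 849, 1071 and 1574 against 13.4, 88.6 and 217. None of these 5 genes overlapped between the groups. Of 10 endothelial and pericyte markers, 5 were higher in CD11b+ cells (2 with the background subtracted) and 1 in GFP+ cells (1). Shares over all genes were 29.8% (10.5%) and 10.2% (8.97%). The 5 became 2 without GFP+ library 1 and 3 without GFP+ library 2 or CD11b+ library 1, and the 1 was lost without any 1 library except CD11b+ library 3. Their summed level ran from 51.5 to 66.8 FPKM in CD11b+ and from 64.2 to 91.8 FPKM in GFP+ libraries. The part of endothelial cells in these values was not tested. Flt1 missed the threshold without any 1 of GFP+ 1, GFP+ 2, GFP+ 3, CD11b+ 1 or CD11b+ 2 (adjusted p from 0.0599 to 0.111). Flt4 missed the threshold without any 1 of GFP+ 2, GFP+ 3 or CD11b+ 1 (adjusted p from 0.0559 to 0.073). Vegfc missed the threshold without CD11b+ 1 or CD11b+ 3 (adjusted p = 0.056 and 0.0503).

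The other split pairs that passed with the background subtracted were Gdf15 with Gfral, Cd24a with Siglecg, and Icam1 with Itgam. Gdf15, a stress hormone, read 2148, 2799 and 2183 in GFP+ and 129, 0 and 36 in CD11b+ libraries (adjusted p = 0.00574), and its receptor Gfral 419, 825 and 662 in CD11b+ and 0, 35 and 17.2 in GFP+ libraries (adjusted p = 0.0168), where 159 were expected from background in CD11b+ cells. Cd24a, a surface protein that inhibits phagocytosis through Siglec receptors, read 1013, 816 and 626 in GFP+ and 276, 0 and 96.1 in CD11b+ libraries (adjusted p = 0.025). Siglecg read 829, 1296 and 316 in CD11b+ and 42.9, 50.4 and 0 in GFP+ libraries (adjusted p = 0.00758). The adhesion ligand Icam1 read 3995, 4039 and 5192 in GFP+ and 84.7, 183 and 142 in CD11b+ libraries (adjusted p = 0.0216). Every gene of these 3 pairs was without overlap between the groups. Cd24a missed the threshold without any 1 of GFP+ 1, GFP+ 2 or GFP+ 3 (adjusted p from 0.0577 to 0.0704). Icam1 missed the threshold without any 1 of GFP+ 1, GFP+ 2, GFP+ 3 or CD11b+ 1 (adjusted p from 0.0541 to 0.0648). Gfral missed the threshold without GFP+ 1 (adjusted p = 0.0746).

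For the pairs Il33 with Il1rl1, Angpt2 with Tek, Gas6 with Mertk and Anxa1 with Fpr2, the ligand was higher in GFP+ cells with and without the background, while the receptor's call in CD11b+ cells was lost on subtraction. Il33, an alarmin, read 4465, 6761 and 8772 in GFP+ and 8.9, 72 and 49.8 in CD11b+ libraries (difference -7.59 ± 1.29). Annexin A1 (Anxa1) read 6544, 7899.8 and 7339.6 against 477, 698 and 519 (difference -3.7 ± 0.45), and Angpt2, an angiopoietin, 3959, 4375 and 5069 against 486, 1179.6 and 286. Gas6, which bridges dying cells to receptors of the TAM family, read 4125, 5067 and 5327 in GFP+ and 709, 459.7 and 2155 in CD11b+ cells. Of the TAM receptors, Mertk read 2201, 2929.7 and 1628 in CD11b+ and 1209, 788 and 756 in GFP+ cells (difference 1.29 ± 0.45, adjusted p = 0.0352), and its direction turned with edgeR (-0.06). The difference of 1.29 was under the median of all genes, 1.79, and above that of named protein-coding genes, 0.3. Axl was at 1301, 1174 and 1094 and 1441, 914 and 1365, with overlap (adjusted p = 0.979). Tek read 343, 222 and 218 in CD11b+ against 0, 7.5 and 60.8 in GFP+ cells, below the background of 412 expected there, and turned to -1.92 on subtraction. Angpt2 missed the threshold without any 1 of GFP+ 1, GFP+ 2, GFP+ 3, CD11b+ 1 or CD11b+ 3 (adjusted p from 0.0923 to 0.119). Mertk missed the threshold without any 1 of GFP+ 2, GFP+ 3, CD11b+ 1 or CD11b+ 2 (adjusted p from 0.0689 to 0.105). Gas6 missed the threshold without GFP+ 3 or CD11b+ 2 (adjusted p = 0.0511 and 0.0602) and Tek missed the threshold without GFP+ 1 or CD11b+ 1 (adjusted p = 0.0824 and 0.0501).

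The single pair split the other way was Apoe and Lrp1. Apoe (chromosome 7, 19696109 to 19699188), the lipid carrier of glia and microglia, read 84486, 49184 and 79202 in CD11b+ and 9841, 18570.1 and 13759.7 in GFP+ libraries (difference 2.34 ± 0.57, adjusted p = 0.00697), beside a median of 1.79 over all genes and 0.3 over named protein-coding genes. Lrp1 (chromosome 10, 127538161 to 127621148), an endocytic receptor of apolipoprotein E, read 8498, 12422 and 11997 in GFP+ and 1689, 731 and 1579 in CD11b+ libraries (difference -3.11 ± 0.65, adjusted p = 0.00356). Both genes were without overlap. Calreticulin (Calr), an eat-me signal on dying cells that also binds Lrp1, was higher in GFP+ cells, at 7557, 12477 and 14617 against 2130.1, 1030.1 and 2812.

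Several chemokines of the CC family and their receptors were phagocyte transcripts. Ccl12 read 2625, 1218 and 2817 in CD11b+ and 9.5, 3.4 and 50.1 in GFP+ libraries (difference 7.29, adjusted p = 0.000961), and its receptor Ccr2, a gene of recruited monocytes, 1818, 1196 and 1959 against 71.8, 17.8 and 0.4 (adjusted p = 0.0083). Ccr1 read 1791, 2592 and 2473 in CD11b+ cells and 0 in every GFP+ library, at least 5426-fold higher (adjusted p = 0.000555). Its ligands Ccl6 at 1667, 1030.1 and 410.2 against 40.6, 0 and 0 and Ccl9 at 673, 753 and 1649.8 against 0, 0 and 39.7 were higher in CD11b+ cells too, with and without the background. Ccl3 at 779.8, 72 and 70.9 against 12.2, 0 and 0 and Ccl4 at 628, 22.2 and 193 against 18.5, 3.4 and 7.5 were higher without subtraction but did not pass with it. Ccl2, the main ligand of Ccr2, did not pass: GFP+ cells read 1703, 1400.4 and 811 and CD11b+ cells 784, 233 and 850.4, with overlap (adjusted p = 0.276). Nor did Ccl7, another ligand of Ccr2, at 517, 11.1 and 479 in CD11b+ and 299, 178 and 104 in GFP+ cells (adjusted p = 0.874), or the receptor Ccr6, at 369.9, 0 and 58.3 and 12.6, 0.6 and 0 (adjusted p = 0.16). Ccl4 missed the threshold without any 1 of GFP+ 2, GFP+ 3, CD11b+ 1 or CD11b+ 3 (adjusted p from 0.0529 to 0.0949). Ccr6 passed it without CD11b+ 2 (adjusted p = 0.0135).

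Inflammatory cytokines divided between the compartments. Il1b read 2652, 316 and 2418 in CD11b+ and 53.3, 0 and 0 in GFP+ libraries (difference 8.39 ± 1.5, adjusted p = 0.00181), with CD11b+ library 2 far below the others. Of the IL-6 family, Osm read 865, 349 and 146 in CD11b+ against 0, 0 and 3.6 in GFP+ libraries and Il6 450.1, 581.5 and 945 against 0.9, 5.2 and 86.9, while Lif was on the other side, at 849.9, 453 and 561 in GFP+ and 40.1, 0 and 0 in CD11b+ libraries. Tslp, an epithelial cytokine, read 19374, 11554 and 16701 in GFP+ and 374, 88.6 and 27.6 in CD11b+ libraries (difference -7.3 ± 1.18, adjusted p = 0.00114). Tnf was low and did not pass, at 22.3, 0 and 105 against 0 (adjusted p = 0.0645). Its receptors lay on opposite sides: Tnfrsf1a read 3815, 3845 and 3532 in GFP+ and 464, 288 and 891 in CD11b+ libraries (difference -2.92 ± 0.6), and Tnfrsf1b 1092, 122 and 1318 in CD11b+ and 0, 65.3 and 21.8 in GFP+ libraries (difference 5.61 ± 2.12, lost on subtraction). Tnfrsf1b missed the threshold without any 1 of GFP+ 1, GFP+ 3, CD11b+ 1 or CD11b+ 3 (adjusted p from 0.0811 to 0.19). Il6 missed the threshold without GFP+ 1 (adjusted p = 0.0528) and Tnf passed it without CD11b+ 2 (adjusted p = 0.00828).

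Growth factors for receptor tyrosine kinases were divided between the compartments. The EGF receptor ligands Hbegf, Areg and Ereg were higher in GFP+ cells, Hbegf at 26423, 17294 and 12471 against 365, 255 and 128 in CD11b+ cells, Areg at 7646, 5189.5 and 4923 against 26.7, 49.8 and 0, and Ereg at 3099, 697 and 762 against 0, 5.5 and 0. Tgfa and Egf, ligands of the same receptor, were higher in CD11b+ cells, Tgfa at 873, 1805 and 465 against 317, 189.7 and 292 and Egf at 1159, 1423 and 585 against 106, 79.1 and 57.6, but neither with subtraction. Btc, a further ligand, did not pass, at 249.6, 88.6 and 167 in CD11b+ and 1179, 522 and 504 in GFP+ cells (adjusted p = 0.237), but passed as lower in CD11b+ cells with subtraction. Their receptor Egfr read 1249, 1218 and 1895 in GFP+ and 374, 305 and 512 in CD11b+ libraries without overlap, but did not pass (difference -1.87 ± 0.89, adjusted p = 0.106), beside a background of 990 expected in CD11b+ cells. It passed as lower with that background subtracted. Fgf1 read 5534, 8847 and 7609 in GFP+ and 57.9, 105 and 63.7 in CD11b+ libraries and its receptor Fgfr1 4213, 6364 and 5099 against 299, 809 and 509, so that both sides of the pair were in tumor cells. The heparin-binding factors pleiotrophin (Ptn) at 34431, 41628 and 49894 against 655, 2033 and 2995 and midkine (Mdk) at 1596, 1098 and 1049 against 0, 0 and 2.4 were higher in GFP+ cells as well. Phagocytes held more Hgf, at 1689, 1805 and 1631 against 35.7, 119 and 11.4 (difference 5.49 ± 1.26, adjusted p = 0.00566), and more Igf1, at 1189.8, 1379 and 2046 against 233, 60.2 and 67.2, the latter not with the background subtracted. Met, the receptor of Hgf, did not pass, at 744, 1124 and 529.7 in CD11b+ and 195, 175 and 235 in GFP+ cells (adjusted p = 0.236). Egf missed the threshold without any 1 of GFP+ 1, GFP+ 2, GFP+ 3, CD11b+ 1, CD11b+ 2 or CD11b+ 3 (adjusted p from 0.0526 to 0.115). Tgfa missed the threshold without any 1 of GFP+ 1, GFP+ 2, GFP+ 3, CD11b+ 1 or CD11b+ 2 (adjusted p from 0.052 to 0.11).

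Osteopontin and its receptor subunit Itgav were tumor-cell transcripts. Spp1 (chromosome 5, 104435118 to 104441050) read 356207, 188242 and 156359 in GFP+ and 5138, 2370.3 and 7574 in CD11b+ libraries (difference -5.6 ± 0.68, adjusted p = 0.000259), and no other tested ligand had a higher FPKM in GFP+ cells. The integrin subunit Itgav read 3962, 2783 and 3792 in GFP+ and 441, 604 and 1476 in CD11b+ libraries (difference -2.24 ± 0.58, adjusted p = 0.00962). Cd44, another receptor of osteopontin, did not pass, at 3746, 3242 and 4021 in GFP+ and 3061, 2376 and 1807 in CD11b+ cells (difference -0.63 ± 1.4, adjusted p = 0.734). Mfge8, which bridges phosphatidylserine on dying cells to Itgav, read 2249, 4068 and 3383 in GFP+ against 89.1, 5.5 and 133 in CD11b+ cells.

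The don't-eat-me signal Cd47 read 4078, 4405 and 4556 in GFP+ and 1181, 3074 and 2889 in CD11b+ libraries. All 3 GFP+ values were above all CD11b+ values, but the difference did not pass (-0.99 ± 0.42, adjusted p = 0.0728). Its receptor Sirpa read 3561, 3239.8 and 2038 in CD11b+ and 498, 763 and 913 in GFP+ libraries (difference 2.03 ± 0.43, adjusted p = 0.00391), beside a median of 1.79 over all genes and 0.3 over named protein-coding genes. Among 17 inhibitory myeloid receptors, Sirpa included, 15 were higher in CD11b+ cells, 12 of them with the background subtracted, and none in GFP+ cells. Havcr2 (TIM-3) read 1734, 1152 and 1716 against 12.2, 18.9 and 2.1, and its ligand Lgals9 4443, 908 and 3774 against 171, 93.4 and 402, so both genes of that pair were phagocyte transcripts.

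Without subtraction, the Fc receptor, oxidase and complement lists held calls in CD11b+ cells and none in GFP+ cells. Of 19 Fc receptor and ITAM signaling genes, 18 were higher in CD11b+ cells (15 with the background subtracted) and none lower, with a median difference of 6.77. Fcgr3, a receptor for IgG, read 4327, 2465 and 4115 in CD11b+ and 36.1, 18.3 and 21.8 in GFP+ libraries (difference 7.12 ± 0.7, adjusted p = 7.66e-05), Fcgr1 2094, 858 and 2423 against 5, 14.3 and 20, and Vav1, an exchange factor downstream of ITAM receptors, 1947, 310.1 and 2627 against 0, 0 and 0.4. Of 8 subunits and partners of the phagocyte oxidase, which makes superoxide, 7 were higher, all 7 with subtraction. Ncf1 read 1885, 914 and 3116 against 0 in each GFP+ library. Of 18 complement genes, 10 were higher (8 with subtraction) and none lower. In the fit with subtraction 1 was lower, after quantile normalization 1, and without GFP+ library 1 also 1. Among them the anaphylatoxin receptors read 2807, 1473 and 1829 against 16.3, 0 and 2.9 for C3ar1 and 2139, 609 and 1175 against 0, 4 and 0 for C5ar1, and C1qb 24959.5, 14438 and 18765 against 88.1, 14.3 and 74.

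Antigen presentation divided by class. Of 13 MHC class II genes, 8 were higher in CD11b+ cells (7 with subtraction) and none lower, with a summed level of 1590 to 2830 FPKM against 28.7 to 45.9 FPKM. In the fit with subtraction 2 of them were lower, and after quantile normalization 2. H2-Aa, a class II chain, read 989, 759 and 1524 in CD11b+ and 0, 13.2 and 0 in GFP+ libraries, and the protease Ctss, which trims the invariant chain, 41287, 27447 and 39719 against 181, 78.5 and 75.5 (difference 8.43 ± 1.09, adjusted p = 0.000345). Of 13 class I genes, 1 was higher and 1 lower in CD11b+ cells, neither with subtraction. The higher call was lost without GFP+ library 1 or CD11b+ library 3 and became 2 without GFP+ library 2, and the lower call was lost without any 1 GFP+ library or CD11b+ library 1. The summed level overlapped, at 624 to 1600 FPKM in CD11b+ and 708 to 1270 FPKM in GFP+ cells. The class I light chain B2m read 11591, 6651 and 18750.3 in CD11b+ and 8939, 11969.8 and 14123 in GFP+ cells (difference -0.02 ± 0.34, adjusted p = 0.965).

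Toll-like receptor and interferon genes lost most of their calls with the background subtracted, and lysosomal and engulfment genes had calls on both sides. Of 24 Toll-like receptor and innate sensing genes, 12 were higher in CD11b+ cells, but 4 of them with the background subtracted, beside 29.8% and 10.5% of all genes. The 12 became 7 without GFP+ library 1 and 4 with edgeR. Cd14, a co-receptor for lipopolysaccharide, read 1685, 1097 and 2478 in CD11b+ and 132, 146 and 90.8 in GFP+ libraries (difference 3.77 ± 0.68, adjusted p = 0.00181). Of 21 interferon response genes, 6 were higher, beside 29.8% of all genes, and 1 of the 6 with subtraction, beside 10.5% of all. The lower gene was Ifitm3, an antiviral membrane protein, at 882, 576 and 981 in CD11b+ and 12926, 11409 and 8754 in GFP+ libraries (difference -3.78 ± 0.43, adjusted p = 0.000199). Of 23 lysosomal genes, 5 were higher in CD11b+ cells (5 with subtraction) and 4 in GFP+ cells (3). The 4 became 1 without GFP+ library 1, 2 or 3, 0 without CD11b+ library 2 and 2 without CD11b+ library 3. Ctsd, the cathepsin D gene, read 23275, 16659 and 19573 in CD11b+ and 24798, 24493 and 25485 in GFP+ cells (adjusted p = 0.615). Of 26 engulfment genes, 9 were higher in CD11b+ cells (5 with subtraction) and 5 in GFP+ cells (5). Over all genes, 29.8% were higher (10.5% with subtraction) and 10.2% lower (8.97%). Without subtraction, the share of higher calls was near that of all genes for engulfment and under it for lysosomal genes. The sign of the median of the lysosomal, engulfment and class I lists, 0.34, 0.55 and 0.29, turned with the scaling or tool: under upper-quartile rescaling it was -0.03, 0.18 and -0.08, and with edgeR -0.83, -0.81 and -0.98.

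**Figure D3:**
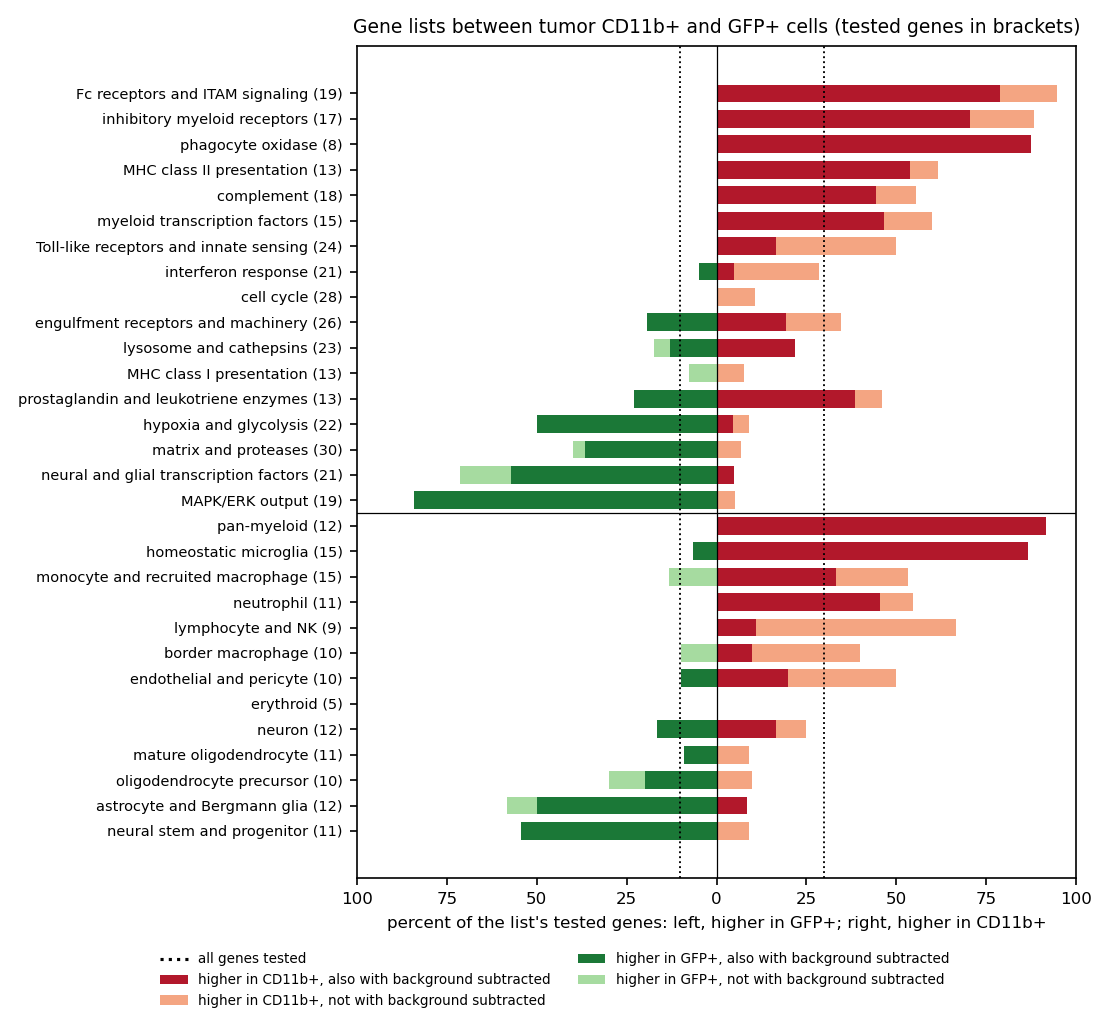
Percent of each list's tested genes that passed as higher in CD11b+ (right) or in GFP+ cells (left), with dark bars for calls that also passed with the background subtracted; dotted lines mark 29.8% and 10.2%, the percent of all genes. Fc receptor, inhibitory receptor, oxidase and pan-myeloid lists reach furthest right, and the MAPK/ERK list furthest left.

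Without both shallow CD11b+ libraries, which leaves 1 library in that group that is assumed to vary like the others, several list counts fell by more than 1.5 times. Calls in CD11b+ cells went from 13 to 8 for microglia, from 15 to 9 for inhibitory receptors, from 9 to 5 for engulfment, from 6 to 2 for interferon and from 6 to 0 for lymphocyte genes. Calls in GFP+ cells went from 16 to 7 for MAPK/ERK, from 12 to 7 for matrix, from 11 to 5 for hypoxia and glycolysis, from 15 to 9 for neural factors and from 6 to 3 for neural stem genes.

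Targets of the MAPK/ERK cascade lay on the tumor-cell side. Of 19 genes tested, 16 were higher in GFP+ cells, all 16 with the background subtracted, and 1, Etv1, was higher in CD11b+ cells without subtraction. Their summed level was 1190 to 1570 FPKM in GFP+ and 40.4 to 132 FPKM in CD11b+ libraries. Spry4, a feedback inhibitor of receptor signaling, read 11245, 15495 and 13979 in GFP+ and 8.9, 327 and 12 in CD11b+ libraries (difference -8.59 ± 1.34, adjusted p = 0.000946). The AP-1 subunit Fosl1 read 2347, 1182 and 827 against 0 in every CD11b+ library, at least 977.7-fold, cyclin D1 (Ccnd1) 9738, 8068 and 9292 against 93.6, 299 and 644, and the PEA3 factor Etv4 2699.6, 3394 and 2299 against 31.2, 5.5 and 4.2. Dusp6, a phosphatase that acts on ERK, read 21647, 31211 and 23173 against 165, 294 and 1402, highest among CD11b+ cells in library 3. Etv1, of the same family as Etv4, read 2598, 2465 and 625 in CD11b+ and 495, 510.2 and 491 in GFP+ cells, beside 978 expected from background, and turned to -1.89 on subtraction. Of 28 cell cycle genes, 3 were higher in CD11b+ cells, none of them with subtraction, and none in GFP+ cells. Shares over all genes were 29.8% higher (10.5% with subtraction) and 10.2% lower. The 3 became 1 without GFP+ library 1 or CD11b+ library 1 (summed level 157 to 214 FPKM in CD11b+ and 97 to 162 FPKM in GFP+ libraries). The median of that list turned from 0.64 to -1.22 with subtraction, -0.57 after quantile normalization and -0.32 with edgeR. In those fits 3, 3 and 1 of its genes were higher in GFP+ cells. Etv1 missed the threshold without any 1 of GFP+ 1, GFP+ 2, GFP+ 3, CD11b+ 1 or CD11b+ 2 (adjusted p from 0.0731 to 0.111).

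Matrix genes followed the tumor cells in part. Of 30 tested, 12 were higher in GFP+ cells (11 with subtraction), 2 in CD11b+ cells (none with subtraction) and 16 did not pass. Shares over all genes were 10.2% (8.97%) and 29.8% (10.5%). Timp1, an inhibitor of metalloproteinases, read 25024, 15039 and 10219 in GFP+ and 22.3, 0 and 30.6 in CD11b+ libraries (difference -10.76 ± 1.29, adjusted p = 0.000252). The membrane protease Mmp14 read 3021, 3362 and 4396 against 147, 149.5 and 67.9 and the glycoprotein tenascin C (Tnc) 10416, 15911 and 23189 against 1858, 748 and 1485. The groups did not overlap in any of these genes.

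Enzymes of arachidonic acid metabolism were divided step by step. Of 13 tested, 6 were higher in CD11b+ cells (5 with subtraction) and 3 in GFP+ cells (3), the latter 1 without any 1 of the GFP+ libraries. Shares over all genes were 29.8% (10.5%) and 10.2% (8.97%). Cyclooxygenase 1 (Ptgs1) read 3111, 1595 and 1366 in CD11b+ and 41.1, 0 and 72.2 in GFP+ libraries (difference 7.02 ± 1.31, adjusted p = 0.00219). Inducible cyclooxygenase 2 (Ptgs2) was the reverse, at 2019, 1395 and 1666 in GFP+ and 192, 133 and 68.5 in CD11b+ libraries (difference -3.79 ± 1.24, adjusted p = 0.0278). The terminal synthases divided the same way: the prostaglandin E synthases read 5729.9, 3246 and 5092 in GFP+ against 183, 11.1 and 66.1 in CD11b+ libraries for Ptges and 807, 847 and 965 against 0, 205 and 239 for Ptges2. The prostaglandin D synthase Hpgds read 2304, 775 and 2275 in CD11b+ against 94.8, 3.4 and 43.6 in GFP+ libraries, and the thromboxane synthase Tbxas1 1497, 3445 and 3016 against 76.3, 34.4 and 0. On the leukotriene branch, Alox5ap, which hands arachidonic acid to 5-lipoxygenase, read 464, 471 and 1789.7 in CD11b+ and 1.4, 14.3 and 10.7 in GFP+ libraries, and the leukotriene C4 synthase Ltc4s 214, 49.8 and 322 against 7.7, 1.1 and 6.1. The 5-lipoxygenase gene Alox5 did not pass, at 201, 83.1 and 191 in CD11b+ and 1199, 731 and 1263 in GFP+ cells without overlap (adjusted p = 0.159). Ptges2 missed the threshold without any 1 of GFP+ 1, GFP+ 2 or GFP+ 3 (adjusted p from 0.0708 to 0.0811). Ptgs2 missed the threshold without any 1 of GFP+ 1, GFP+ 2, GFP+ 3, CD11b+ 2 or CD11b+ 3 (adjusted p from 0.0517 to 0.0787).

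**Figure D4:**
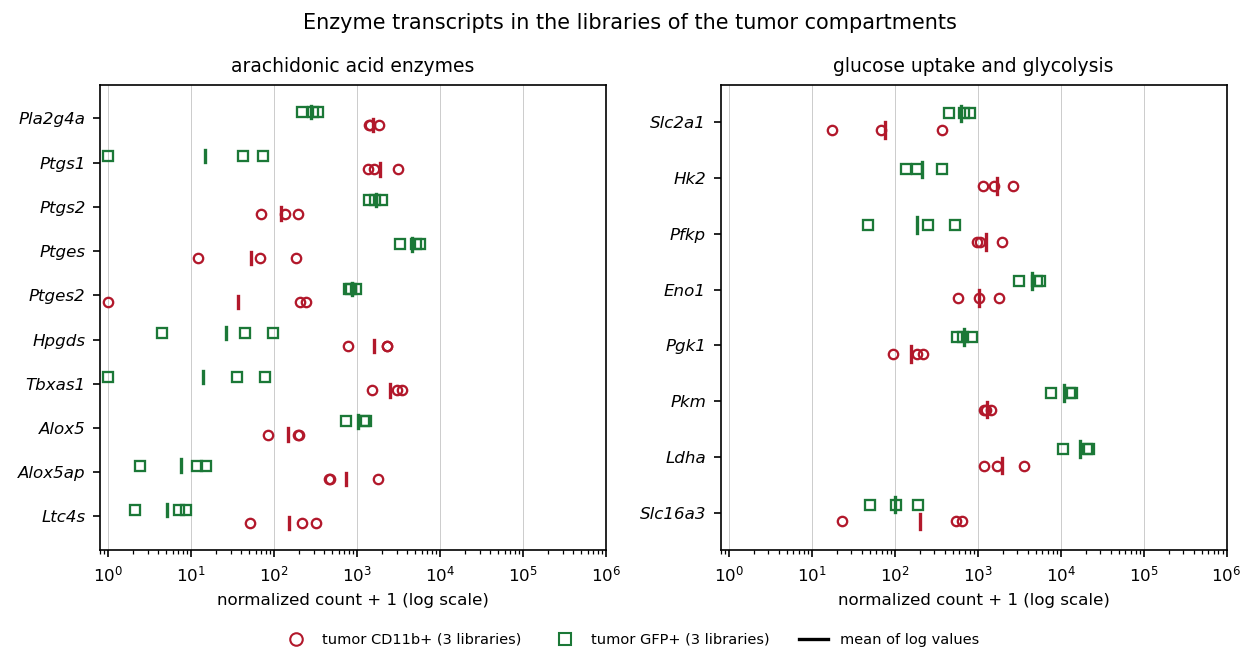
Normalized count + 1 (log scale) in each tumor library for 10 genes of arachidonic acid metabolism (left) and 8 of glucose uptake and glycolysis (right); vertical ticks are means of the log values. Ptgs1, Hpgds and Tbxas1 lie at higher counts in CD11b+ cells, Ptgs2 and Ptges in GFP+ cells, and Hk2 lies opposite to Pkm and Ldha.

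Glycolytic and hypoxia genes were called more often in tumor cells. Of 22 tested, 11 were higher in GFP+ cells, all 11 with subtraction, 2 in CD11b+ cells (1 with subtraction), and 9 did not pass. Without GFP+ library 2 or CD11b+ library 2 the 2 became 1. Lactate dehydrogenase A (Ldha) read 10656, 20887 and 21839 in GFP+ and 1707, 1202 and 3619 in CD11b+ libraries (difference -3.12 ± 0.58, adjusted p = 0.00216), and pyruvate kinase (Pkm) 7679, 12931 and 13708 against 1462, 1191 and 1257 (difference -3.09 ± 0.58, adjusted p = 0.00225). The glucose transporter Slc2a1 read 677, 451 and 804 in GFP+ and 66.8, 16.6 and 375 in CD11b+ libraries. Hexokinase 2 (Hk2), which traps glucose in the cell, was the single gene of the list higher in phagocytes with and without the background, at 1177, 2658 and 1592 in CD11b+ and 137, 367 and 185 in GFP+ libraries (difference 3.02 ± 0.68, adjusted p = 0.00529). Slc2a1 missed the threshold without GFP+ 3 or CD11b+ 2 (adjusted p = 0.0579 and 0.0561).

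Promoters of several gene lists were searched for 3 short motifs on both strands, from 250 bases before to 50 bases after each start in the RefSeq table for GRCm38.p6. The motif ACGTG, the core of the hypoxia response element, was in 16 of 29 promoters of the hypoxia and glycolysis list (55.2%), beside 19.6% of all 32851 promoters. Median GC content was 63.3% in that list and 52.7% over all promoters. Among promoters of all genes that met the naming rule as higher in GFP+ cells, 26.6% held ACGTG, at a median GC content of 61.3%. For those higher in CD11b+ cells it was 19.2%, at 55.7%. The motif GAGGAAGT, bound by the myeloid ETS factor Spi1 (PU.1), was in 3 of 21 promoters of the Fc receptor and ITAM list (14.3%), beside 3.2% of all promoters, with a median GC content of 50%. It was also in 2 of 13 promoters of the MAPK/ERK list (15.4%), which lay on the tumor-cell side, in 1 of 9 of the pan-myeloid list and in 0 of 13 of the microglia list. ACGTG was in 4 of 13 promoters of the MAPK/ERK list (30.8%) and 2 of 21 of the Fc receptor list. The AP-1 motif TGANTCA was in 2 of 29 promoters of the hypoxia list, 1 of 21 of the Fc receptor list and 0 of 13 of the MAPK/ERK list, beside 7.81% of all. Matches of different searched motifs overlapped in 44 promoters. A match is only a description of these letters. The 100 bases before the start are shown, 5′ to 3′ on the gene's strand, with the match in capitals, for glycolytic genes of either direction and for 3 phagocyte genes of the ITAM list.
Ldha (chr7:46845704-46845803, plus strand): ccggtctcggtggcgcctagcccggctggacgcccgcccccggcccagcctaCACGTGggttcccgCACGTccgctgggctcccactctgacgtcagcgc
Pkm (chr9:59657127-59657226, plus strand): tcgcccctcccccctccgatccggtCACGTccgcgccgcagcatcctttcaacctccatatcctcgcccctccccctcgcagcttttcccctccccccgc
Hk2 (chr6:82774455-82774554, minus strand): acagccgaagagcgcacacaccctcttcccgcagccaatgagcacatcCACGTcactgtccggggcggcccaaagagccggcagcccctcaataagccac
Vav1 (chr17:57279000-57279099, plus strand): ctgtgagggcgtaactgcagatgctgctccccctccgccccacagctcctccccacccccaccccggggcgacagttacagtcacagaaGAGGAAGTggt
Fcgr4 (chr1:171018826-171018925, plus strand): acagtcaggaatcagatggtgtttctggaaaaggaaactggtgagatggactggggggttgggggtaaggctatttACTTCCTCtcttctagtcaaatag
Inpp5d (chr1:87620212-87620311, plus strand): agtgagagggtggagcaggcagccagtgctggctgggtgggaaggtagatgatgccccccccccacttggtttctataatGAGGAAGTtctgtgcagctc

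In the windows shown, ACGTG or its reverse complement stands before Ldha and Pkm, which were higher in GFP+ cells, and also before Hk2, which was higher in CD11b+ cells. Of the genes with GAGGAAGT, the IgG receptor Fcgr4 read 860.1, 310.1 and 244 in CD11b+ and 0, 4.6 and 12.5 in GFP+ libraries, and the lipid phosphatase Inpp5d, which dampens ITAM signaling, 1012, 2586 and 4383 against 0, 154 and 8.6. Spi1 itself read 1551, 598 and 1675 in CD11b+ and 15.4, 0 and 0.4 in GFP+ libraries (difference 8.67 ± 1.15, adjusted p = 0.000379).

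The transcription factors that passed followed the compartments, with 1 exception. Of 15 myeloid factors, 9 were higher in CD11b+ cells (7 with subtraction) and none in GFP+ cells, where 1 was higher without CD11b+ library 1. Irf5 read 1364, 1307 and 3029.9 in CD11b+ and 0, 2.3 and 0.4 in GFP+ libraries. Of 21 neural and glial factors, 15 were higher in GFP+ cells (12 with subtraction). The exception was Atoh1, the factor that specifies cerebellar granule cells, at 2857, 2154 and 1715 in CD11b+ and 14, 70.5 and 35 in GFP+ libraries (difference 6.02 ± 1.26, adjusted p = 0.00367), beside 49 expected from background in CD11b+ cells. All 3 CD11b+ values lay above all GFP+ values, and it was higher with the background subtracted too.

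Marker lists of phagocyte types were called in CD11b+ cells to differing extent, beside 29.8% of all genes and 10.5% with subtraction. Of 15 homeostatic microglia genes, 13 were higher in CD11b+ cells, all 13 with subtraction, with P2ry12, a purine receptor of resting microglia, at 9666, 3916 and 2772 against 175, 36.7 and 119.8. The member higher in GFP+ cells was Sparc, a matrix glycoprotein that astrocytes also make, at 25014, 41643 and 37104 against 16969, 10439 and 14521. Of 11 neutrophil genes, 6 were higher (5 with subtraction). The calprotectin chain S100a8 read 352, 366 and 1021 in CD11b+ and 5.9, 0 and 0 in GFP+ libraries, and its partner S100a9 379, 942 and 403 against 3.6, 0 and 0. The G-CSF receptor Csf3r read 1408, 1069 and 1260 against 0, 4.6 and 2.1, and the granule collagenase Mmp8 784, 1152 and 329.7 against 0 in each GFP+ library. Ly6g, the surface antigen of neutrophils, was at 0 in all 3 CD11b+ libraries. The neutrophil list summed to 180 to 314 FPKM in CD11b+ and 0.1 to 4.4 FPKM in GFP+ cells. Of 15 monocyte and recruited macrophage genes, 8 were higher (5 with subtraction) and 2 lower (none with subtraction). The 2 became 0 without GFP+ library 1, CD11b+ library 1 or CD11b+ library 2, and 1 without GFP+ library 2 or 3. Of 10 border macrophage genes, 4 were higher (1 with subtraction), the latter near the share of all genes. Pf4, a chemokine listed for border macrophages, was higher in GFP+ cells, at 3587, 2988 and 1830.4 against 369.9, 354 and 218 (difference -3.14 ± 1.17, adjusted p = 0.0466), a call that missed with subtraction. Of 9 lymphocyte and NK genes, 6 were higher in CD11b+ cells but 1 with subtraction, near the share of all genes, and the 6 became 2 without GFP+ library 2 and 3 without GFP+ library 3. The list summed to 25.4 to 67.4 FPKM in CD11b+ and 1 to 4.1 FPKM in GFP+ libraries. Pf4 missed the threshold without any 1 of GFP+ 1, GFP+ 2, GFP+ 3, CD11b+ 1, CD11b+ 2 or CD11b+ 3 (adjusted p from 0.0764 to 0.123). P2ry12 missed the threshold without GFP+ 2 (adjusted p = 0.0526).

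Markers of oligodendrocytes and neurons had few calls, on both sides, beside 29.8% of all genes higher (10.5% with subtraction) and 10.2% lower (8.97%). Mature oligodendrocyte genes summed to 73.6 to 109 FPKM in CD11b+ and 40.3 to 158 FPKM in GFP+ libraries, with 1 of 11 higher (0 with subtraction) and 1 lower (1). The 1 higher became 2 without GFP+ library 2 and 3 without CD11b+ library 3. Neuronal genes summed to 56 to 96.4 and 24.4 to 35.7 FPKM, with 3 of 12 higher in CD11b+ cells (2 with subtraction) and 2 in GFP+ cells (2). The 3 became 5 without GFP+ library 3, and the 2 became 1 without GFP+ library 1 or 3 or CD11b+ library 3 and 0 without CD11b+ library 1. No erythroid gene of 5 passed. The part of these cells in the differences above was not tested. The genes Trem1 and Trem2, receptors of myeloid cells, were listed at 0 in all 6 tumor libraries, but each symbol belongs to more than 1 entry of the table, so that their level could not be read.

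The compartment difference was compared with that of the healthy cerebellum by the interaction term of the same fit, (tumor CD11b+ minus tumor GFP+) minus (control CD11b+ minus control GFP+). Of 29835 genes, 615 (2.06%) shifted toward CD11b+ cells in the tumor and 697 (2.34%) toward GFP+ cells. Among the 571 list and pair genes tested, 36 shifted toward CD11b+ and 70 toward GFP+ cells. Tumor and control libraries differ in genotype and in tissue, tumor against cerebellum, which cannot be told apart here. The tumor label names no brain region. Their CD11b+ libraries also differed in background, 58.7 to 89.3 against 4.57 to 37.4 normalized counts per kb. Mitochondrial transcripts took 13.3 to 17.7% in tumor and 0.63 to 2.54% in control CD11b+ libraries, and 1.53 to 2.62% against 20.1 to 30.4% in GFP+ libraries. The part of these library differences in the shifts was not tested. Control CD11b+ library 2 held a background of 37.4 normalized counts per kb, against 4.57 and 4.7 in libraries 1 and 3, and without it 2227 genes passed in place of 1312. Without GFP+ tumor library 1, 2 or 3, 705, 655 or 730 passed. With background subtraction 1439 passed.

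The difference of several ligands between the compartments moved toward GFP+ cells in tumors. Spp1 read 1795, 596 and 237 in control CD11b+ and 502, 144 and 389.6 in control GFP+ libraries, with an interaction of -6.65 (adjusted p = 0.00244). Anxa1 read 2006, 888 and 1989.7 and 252, 157 and 235 there, so the side turned (interaction -6.55, adjusted p = 0.000116). Ccl2, which did not pass in tumors, read 608, 263 and 148 in control CD11b+ and 0, 0 and 1 in control GFP+ cells (interaction -9.05, adjusted p = 0.00169). Galanin read 0, 0 and 0 and 2.4, 3.2 and 1 in the controls (interaction -11.96, adjusted p = 0.000667), and Ereg 0, 62.9 and 5.2 and 0, 0 and 0 (interaction -12.18, adjusted p = 0.00681). Among receptors, Tnfrsf1a read 3606, 1169 and 3629 in control CD11b+ and 323, 127 and 139 in control GFP+ cells (interaction -6.71, adjusted p = 0.000993), and Lrp1 20817, 3387 and 17107 and 5369.6, 1213 and 2869 (interaction -5.12, adjusted p = 0.00793). Both receptors were higher in CD11b+ cells of the cerebellum (adjusted p = 0.00084 and 0.0364) and higher in GFP+ cells of the tumor.

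Phagocyte genes that stood further apart in the cerebellum were another group. Fcgr3 read 53587, 14871 and 30037 in control CD11b+ and 0, 0 and 0 in control GFP+ cells (interaction -7.7, adjusted p = 0.00126). Cd14 read 10124, 5362 and 9120 and 0, 0 and 0 (interaction -9.18, adjusted p = 0.000241), and Csf1r 137908, 34007 and 194559 and 0, 0 and 0 (interaction -5.34, adjusted p = 0.0269). Cd68 read 21166, 3700.1 and 13091 and 102, 0 and 1 (interaction -9.93, adjusted p = 0.00953). For the pairs Csf1 and Il34 with Csf1r, and Cx3cl1 with Cx3cr1, the ligands did not pass this test (interaction -3.1, 0.77 and -6.45, adjusted p = 0.0678, 0.847 and 0.124), nor did Cx3cr1 (interaction -2.56, adjusted p = 0.503).

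Kdr was among the genes that shifted the other way. It read 90.1, 338 and 170.2 in control CD11b+ and 195, 384 and 617 in control GFP+ cells, where the difference did not pass (adjusted p = 0.276), and the interaction was 6.22 (adjusted p = 0.00489). Of 11 mature oligodendrocyte genes 8, and of 12 neuronal genes 8, shifted toward CD11b+ cells in tumors, as did 3 of 5 erythroid genes. Control GFP+ cells held high levels of them: Mbp, a myelin protein, read 612198, 1053425 and 493829 there and 588, 12259 and 3431 in tumor GFP+ cells, and the hemoglobin gene Hbb-bs 5317, 435672 and 98626 and 105, 267 and 40.4.

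**Figure D5:**
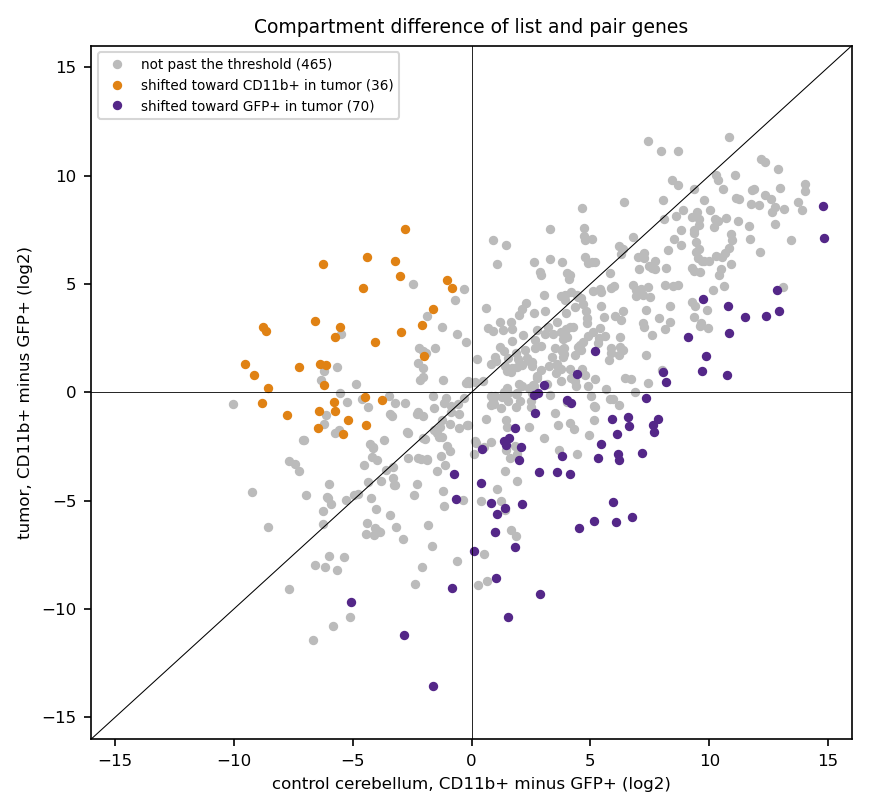
CD11b+ minus GFP+ difference (log2) of the 571 list and pair genes in control cerebellum (horizontal axis) and in tumors (vertical axis), with a line of equal difference. The 36 genes that shifted toward CD11b+ cells lie above the line and the 70 that shifted toward GFP+ cells below it, Anxa1, Spp1 and Ccl2 among the latter.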

How the data were processed

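RNA of sorted CD11b+ and GFP+ cells was amplified with the SMARTer Universal Low Input RNA Kit and made into Nextera XT libraries, per the labels' protocols. These kits keep no strand. Overlapping genes, antisense genes and near-identical copies therefore cannot be told apart, and 1102 genes share a symbol. The submitters' processing notes list bcl2fastq 2.17.1.14, HISAT2 2.1.0, Subread 1.6.2, featureCounts, DESeq2 1.20.0 and the build GRCm38.p6, without saying which tool made which value. The authors deposited, per gene and library, a normalized signal (read counts divided by a size factor, to 1 decimal) and FPKM values (counts per length and library size). Whole reads were recovered from the steps of the normalized counts. Of all values, 100.0% were whole within 0.05, the rounding of the table, plus a margin that grew with the value. Values of 0 were included, and in libraries with small steps the largest values could not fail. GENCODE M21 matched 98.5% of the 54547 gene IDs.

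Of the 12 libraries, at least 3 had to reach 10 normalized counts for a gene to be fitted. The fit was limma 3.58.1 (trend, R 4.3.3) over the 4 group means, on the log2 scale after adding a pseudocount of 1, and p-values were adjusted by Benjamini-Hochberg. The filter left 571 of 586 list and pair genes. Not tested were Cfb, C1s1, Hes5, Elane, Nkg7, Meg3, Csf3, Ccl20, Igf2, Shh and Galr2, and also Kif11, Trem1, Trem2 and Clcf1, whose symbols belong to more than 1 entry and whose level could not be read. A background per library was estimated from receptor genes of smell and taste by length and base composition and subtracted in a separate fit. edgeR 4.0.16 (quasi-likelihood) and DESeq2 1.42.0 on recovered reads, other scalings, filters and pseudocounts, array weights, a replicate block and leaving out libraries were alternatives. Figures were drawn with matplotlib 3.10.9.

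Gene lists, pairs and comparisons were chosen with earlier results of these data known. Genes were named by a rule: 15 per direction with the largest difference, at least 100 normalized counts and 10 reads in every library of the higher group and no overlap; up to 4 per list with the smallest adjusted p; genes of pairs of which at least 1 passed; and Itgam, Ptprc, Csf1r, Cd47, Sirpa, Spp1 and Msi1. The text gives a selection of them by role. Alox5, Atoh1, Btc, C1qb, Ccr6, Cd68, Ctsd, Dusp6, Etv1, Fcgr4, Gfap, Hk2, Inpp5d, Ltc4s, Mbp, Nr2e1, P2ry12, Pf4, Ptges, Ptges2, Ptgs2, Slc2a1, Sparc and Ly6g were named after their values were seen.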

Additional observations from a re-analysis of the deposited data

Results flagged for a closer look

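The compartment difference, CD11b+ minus GFP+, differed between tumor and control for the genes below, by limma's interaction term at an adjusted p under 0.05. Values are tumor minus control on the log2(normalized count + 1) scale, negative where the difference moved toward GFP+ cells. Tumor and cerebellum also differ as tissues, which cannot be told apart from genotype, and their libraries differ in background and mitochondrial share. Among ligands and secreted factors, the value was -6.65 for Spp1, -6.55 for Anxa1, -11.96 for Gal, -7.42 for Tslp, -8.21 for Areg and -12.18 for Ereg. In the same group, the value was -9.05 for Ccl2, -8.95 for Gdf15, -8.34 for Angpt2, -3.88 for Gas6, -4.59 for Mdk and -3.02 for Calr. In the same group, the value was -8.34 for Adm, -4.97 for Igfbp2 and -9.35 for Pf4. Among surface receptors and adhesion genes, the value was -5.34 for Csf1r, -7.7 for Fcgr3, -9.18 for Cd14, -6.71 for Tnfrsf1a, -5.12 for Lrp1 and -3.61 for Itgav. In the same group, the value was -11 for Icam1, 6.22 for Kdr, -2.81 for B2m, -9.93 for Cd68 and -10.89 for Perp. Among genes of Ras signaling and growth, the value was -9.61 for Spry4, -11.1 for Dusp6, -11.89 for Fosl1, -5.91 for Ccnd1, 3.67 for Etv1 and -13.66 for Cdkn2b. Among enzymes and other genes, the value was -7.9 for Ptgs2, -7.43 for Ptges, -9.98 for Alox5, -4.37 for Ctsd, -4.28 for Mmp14 and -3.05 for Ifitm3. Among glial and blood markers, the value was 4.27 for Gfap, 6.55 for Mbp, 10.86 for Hbb-bs and 10.32 for Gpr17. Which of these single calls pass with the background subtracted is not given here. Within tumors, the difference of Etv1 turned to -1.89 on subtraction and Gpr17 lost its call. All 3 RasV12 GFP+ libraries bear on these calls, since leaving out any 1 of them took the number of all genes that passed from 1312 to between 655 and 730.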

How the results depend on the processing

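Against 8896 genes higher in CD11b+ cells, 4258 were called among genes with a mean of at least 100, 4149 after quantile normalization, 1536 with edgeR, 3142 with the background subtracted, 3520 without receptor and clone-named genes and 3366 without both shallow CD11b+ libraries. Against 3057 lower genes, 5127 were called after quantile normalization, 4647 with the background subtracted and 1815 without both shallow libraries, and leaving out 1 library gave 1977 to 3312. Subtraction followed by upper-quartile rescaling, an alternative chosen after seeing the data like the omission of control CD11b+ library 2, gave 3098 higher and 4652 lower. For the tumor against control test, 1312 became 2018 with a pseudocount of 10, 2446 after upper-quartile rescaling, 3135 with DESeq2, 3102 with array weights, and 655 to 2227 on leaving out 1 library. The 12 split pairs became 6 with edgeR, 3 without both shallow libraries and 6 to 10 on leaving out 1 library. The single pair split the other way became 2 with only the 6 tumor libraries or with DESeq2, 0 with edgeR or without both shallow libraries, and 1 to 2 on leaving out 1 library. Deviations of same-numbered tumor libraries from their group means correlated at 0.017, 0.005 and 0.028. This cannot exclude a pairing, because the CD11b+ libraries are noisy and correlated with each other at only 0.512 to 0.537. A replicate block gave 8070 higher, 2800 lower and 795 tumor against control genes. Directions turned for Etv1 (-1.89 with subtraction, -1.92 with rescaling added), Tek (-1.92 and -1.94) and Mertk (-0.06 with edgeR). Of 120 passing genes named in the text, 68 passed in the same direction under every alternative run. The causes were not tested. Depth limits low CD11b+ values, since 1 read was worth 4.46 and 5.54 normalized counts in libraries 1 and 2.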
